A study of Mus musculus with 32 samples.

Results

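Stress-response genes, 10 by name, were followed through the developing mouse lung: the cold-inducible RNA-binding protein genes Cirbp and Rbm3, the endoplasmic reticulum (ER) chaperone genes Hspa5 and Sdf2l1, and the cytosolic heat shock genes Hspa1a, Hspa1b, Dnajb1, Hsp90aa1, Hsph1 and Hspb1. The members were found by the gene name that the array files give to each probe. Of the 10 names, 9 were carried by a probe, out of 33253 gene names on the array. Those 9 genes had 13 probes, and 12 of the probes passed the filter on dim signals and were tested. Hspa1b had no probe of its own name. The probe named Hspa1a lists 1 transcript accession of Hspa1a and 1 of Hspa1b, so these near-identical genes could not be told apart. Cirbp and Sdf2l1 were chosen by their small p-values for antimiR-34a against scrambled antimiR in 21% O2 at postnatal day 14 (P14). In the mice of that comparison, and in every comparison that shares them, the values of both genes are a description without a test. For the other members this holds in that comparison alone.

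The study asked how blocking the microRNA miR-34a alters lungs whose development is disturbed by oxygen. Whole-lung RNA from 32 wild-type C57Bl/6J pups, males and females, was hybridised to 1-colour Agilent arrays, with 1 array per mouse and 4 mice in each of 8 groups. The pups breathed 21% O2 or 85% O2 from P1, and received a scrambled locked nucleic acid antimiR (SCR; antagomiR-scrambled in the labels) or one against miR-34a (A34a; antagomiR-34a in the labels). Lungs were taken at P5, when air sacs are being divided, or at P14, after most of that division. The protocol in the labels gives these ages as P5.5 and P14.5. The 4 groups of each age are thus 21% O2 with SCR, 21% O2 with A34a, 85% O2 with SCR and 85% O2 with A34a. Every mouse in these groups received an injected oligonucleotide. The antimiR acts on the whole animal, and the nursing dams were rotated between the 2 oxygen levels. The labels give pentobarbital for the P5 mice and isoflurane for the P14 mice, whereas the study's methods name pentobarbital for both, so whether the agent differed with age is unsettled.

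Heat shock proteins are chaperones that hold or refold other proteins. The cytosolic set is switched on by heat shock factors when proteins unfold, whereas the ER set answers to unfolded protein inside the secretory pathway through factors such as ATF6 and XBP1. Cirbp and Rbm3 encode small glycine-rich RNA-binding proteins that rise when body or culture temperature is mildly lowered, and Cirbp also follows the daily rhythm of body temperature. In the lung, secretory alveolar type II cells and matrix-producing fibroblasts rely on ER chaperones.

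The antimiR was directed at a microRNA whose mature sequence is given here (RefSeq, GRCm38.p6, chr4:150068473-150068494, plus strand), with the seed, bases 2 to 8, in capitals. None of the 13 member probes (0) holds a match to this seed, which says only that these letters are not in those 60 bases. The array's gene names include none for miR-34a, so its own level could not be read from these data.
mmu-miR-34a-5p: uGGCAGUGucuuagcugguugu
Probes of 2 genes are given because a result turns on where they match, with positions in mm9 as the array files give them. The Hspa1a probe (chr17:35094199-35094258, minus strand) lies in sequence that Hspa1a shares with Hspa1b. The next brightest Rbm3 probe (chr13:60743255-60743314, plus strand) is named for Rbm3 but placed on chromosome 13, while RefSeq places the Rbm3 gene on chromosome X. The brightest Rbm3 probe, from which the values are read, is placed nearby on chromosome 13 (chr13:60743761-60743820), and its sequence is not printed.
Hspa1a probe: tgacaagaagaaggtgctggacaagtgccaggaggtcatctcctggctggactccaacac
Rbm3 probe, next brightest: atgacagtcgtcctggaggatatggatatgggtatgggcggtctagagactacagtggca
Promoter windows of RefSeq (GRCm38.p6, 250 bases before to 50 after a start) were present for 8 of the 10 genes, in 11 windows, and not for Rbm3 or Hsp90aa1. They were searched on both strands for the ER stress element, written as CCAAT then 9 bases of any kind then CCACG, which ATF6 binds, and for a heat shock element, written as GAA and TTC units in turn with 2 bases of any kind between units and 3 units in all. The ER stress element was in 0.119% of 32851 windows over all genes and in the Hspa5 window, at chr2:34772015-34772053. The heat shock element was in 0.603% of all windows and, among members, in both overlapping windows of Hsph1, downstream of the start at chr5:149636280-149636308. Capitals mark the motif in each, and a match is a description of the letters and not evidence of binding.
Hspa5 promoter, plus strand: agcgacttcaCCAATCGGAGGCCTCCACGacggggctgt
Hsph1 promoter, minus strand: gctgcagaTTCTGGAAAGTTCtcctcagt

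Levels are log2 processed signals from which each array's own 75th percentile was subtracted, so a value of 0 is the level of a probe at that percentile, and a difference of 1 is a doubling. Levels of different probes are not compared with each other. A change was called at an adjusted p under 0.05 with limma, adjusted over all probes tested in that comparison (35981 at P5, 38452 at P14 and 39159 across ages), and each gene was read on its brightest probe. The arrays had between 33606 and 40774 probes well above background, and the 8 lung markers (Sftpc, Sftpb, Ager, Aqp5, Scgb1a1, Pecam1, Cdh5 and Foxf1) were above background on all 32. Each of the 4 slides held the 8 arrays of a single age and oxygen level, so oxygen and age cannot be told apart from the slide and its scan. Within a slide the SCR mice occupied 1 row of arrays and the A34a mice the other, so antimiR and row cannot be told apart either. In whole lung, fewer cells of a type and less RNA per cell cannot be told apart.

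Single members of the 3 classes differed between oxygen levels in different directions, and Cirbp was lower with antimiR-34a at P14. In 85% O2 that call of Cirbp was lost under 2 of 11 alternatives, and in 21% O2 the difference has no test. In 85% against 21% O2 with SCR at P5, 3 of 9 members were called, against 43.9% of all probes: Hsp90aa1 and Hspa1a rose and Hspa5 fell. With A34a at P5, 4 of 9 were called, against 46.6% of all probes: Hsp90aa1 and Hspa1a rose, and Hspa5 and Cirbp fell. At P14 with SCR, 4 of the 7 members open to a test were called, against 60.8% of all probes: Rbm3, Hsp90aa1 and Hsph1 rose and Dnajb1 fell. At P14 with A34a, 2 of 7 were called, against 65.5% of all probes: Rbm3 and Hsp90aa1 rose. Members were read on 1 probe each, and the background is over all probes. None of these oxygen counts stands above the share called on the whole array, so they say nothing particular about the members as a set.

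From P5 to P14 in 21% O2 with SCR, 3 of 7 members were called, against 51.4% of all probes: Hspb1 and Hspa1a rose and Rbm3 fell. In 85% O2 with SCR the same step in age called 9 of 9, against 42.2% of all probes: Rbm3 and Dnajb1 fell, and Cirbp, Sdf2l1, Hspa5, Hspa1a, Hsp90aa1, Hsph1 and Hspb1 rose. The difference between the oxygen effects at P14 and P5 with SCR was called for 6 of 7 members, against 40.8% of all probes. AntimiR-34a against SCR called 0 of 9 members at P5 in 21% O2 (background 0.136%) and 0 of 9 at P5 in 85% O2 (background 0.0639%, or 23 probes, where 4283 of all probes were called with no filter on dim probes and still 0 members). By the methods' t-test, 3 and 2 members there had an unadjusted p under 0.05, and 0 passed after adjustment. The difference between these effects of antimiR-34a in the 2 oxygen levels at P5 called 0 of 9 (background 0.0556%). At P14 in 85% O2, antimiR-34a called 1 of 9, Cirbp, against 2.66% of all probes.

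Cirbp, the cold-inducible RNA-binding protein gene, was lower with antimiR-34a at P14 at both oxygen levels. In 85% O2 at P14 the 4 SCR mice read 3.83, 3.84, 3.69 and 3.86, and the 4 A34a mice read 3.27, 2.80, 3.15 and 2.58. Every A34a mouse lay below every SCR mouse, and the A34a mice were the more scattered (SD 0.32, n = 4, against 0.08, n = 4). This was not the comparison that chose Cirbp, though its mice share the estimate of spread. Cirbp fell by 0.85 (SE 0.12, 1.81-fold lower, adjusted p = 0.00404, limma), with a 95% interval from -1.12 to -0.59. The change was -0.73 without A34a replicate 4, the lowest mouse (adjusted p = 0.00834), and -0.96 without A34a replicate 1. The array of replicate 4 stood apart in tissue markers, with summed log2 levels of 2.29 for adipocyte, 9.54 for red blood cell and 6.93 for heart muscle markers, where the other 3 A34a mice had -1.01 to -0.29, 6.94 to 8.16 and 4.62 to 5.63. Fitted on these 2 groups alone the same difference had an adjusted p of 0.101, in a fit that called 2 of 38452 probes, and by the methods' t-test it was 0.333, where no probe (0) was called.

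In 21% O2 at P14, the comparison that chose the gene, the SCR mice read 3.24, 3.18, 3.36 and 3.19 and the A34a mice 2.54, 2.58, 2.44 and 2.63. That difference was -0.69 and is given without a test. At P5 the order was not the same. In 21% O2 the SCR mice read 3.62, 3.66, 3.65 and 3.74 and the A34a mice 3.82, 4.00, 3.98 and 4.06, so that the groups did not overlap and A34a was the higher by 0.30 (SE 0.07), with an adjusted p of 0.0889 that did not pass. It passed only with array weights, among the alternatives tried. In 85% O2 at P5 the SCR mice read 3.39, 3.44, 3.55 and 3.65 and the A34a mice 3.57, 3.47, 3.55 and 3.47, a difference of 0.01 (95% interval -0.14 to 0.15). The difference of these P5 effects was -0.29 (SE 0.10, adjusted p = 0.322).

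Cirbp was lower in 85% O2 at P5 and read higher in 85% O2 at P14. At P5 it fell by 0.45 in 85% O2 with A34a (SE 0.07, 1.36-fold lower, adjusted p = 0.000124), all 4 mice lying below the 21% O2 mice, and the difference with SCR was -0.16 (adjusted p = 0.0714), or -0.21 without 85% O2 SCR replicate 4, which passed (adjusted p = 0.0273). At P14 the 85% O2 mice read higher than the 21% O2 mice, by 0.56 with SCR and by 0.40 with A34a, which are descriptions because those 21% O2 mice chose the gene. Between P5 and P14 in 85% O2 with SCR, Cirbp rose by 0.30 (SE 0.10, adjusted p = 0.0157), a call lost after quantile normalization (0.17, adjusted p = 0.21), with the authors' values (0.17, adjusted p = 0.217) and without P5 85% O2 SCR replicate 1. In 21% O2 with SCR the log2 difference between P14 and P5 was -0.42, described only. Over the 8 groups, mean Cirbp ranged from 2.55 in 21% O2 A34a at P14 to 3.96 in 21% O2 A34a at P5, and the lowest of these is a group whose values chose the gene. In that order the groups next to each other overlapped, except at 2 steps: 21% O2 SCR at P5 (3.67) lay clear of 85% O2 A34a at P5 (3.51), and 85% O2 SCR at P5 (3.51) lay clear of 21% O2 SCR at P14 (3.24).

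Rbm3, the other cold-inducible gene, was higher in 85% O2 at P14 with either oligonucleotide and did not pass at P5 on its brightest probe. With SCR at P14 the 21% O2 mice read 4.47, 4.41, 4.50 and 4.51 and the 85% O2 mice 5.10, 4.77, 5.03 and 4.98. With A34a at P14 the 21% O2 mice read 4.25, 4.22, 4.27 and 4.23 and the 85% O2 mice 5.17, 5.40, 5.19 and 5.12. Neither pair of groups overlapped. Rbm3 rose by 0.50 with SCR (SE 0.08, 1.41-fold, adjusted p = 8.96e-05) and by 0.98 with A34a (SE 0.08, 1.97-fold, adjusted p = 2.22e-07), and the difference between these rises was not tested. At P5 all 16 mice lay within 5.09 and 5.36, and the oxygen differences were 0.11 with SCR (adjusted p = 0.092) and -0.08 with A34a (adjusted p = 0.24). Without 21% O2 SCR replicate 3 the SCR difference was 0.15 and passed (adjusted p = 0.0439).

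With SCR, Rbm3 declined with age. It fell by 0.71 from P5 to P14 in 21% O2 (SE 0.06, 1.63-fold, adjusted p = 1.14e-09) and by 0.33 in 85% O2 with SCR (SE 0.06, 1.25-fold, adjusted p = 0.000128), and with SCR the oxygen effect at P14 exceeded that at P5 by 0.38 (SE 0.09, adjusted p = 0.0011). With A34a the ages were not tested against each other, and the mean went from 5.20 at P5 to 4.24 at P14 in 21% O2 but from 5.13 to 5.22 in 85% O2. With antimiR-34a at P14 in 85% O2 the level was higher by 0.25 (SE 0.08), the groups did not overlap, and the adjusted p was 0.104. That call passed after quantile normalization, with the authors' values and with the mean of the gene's probes. In 21% O2 at P14 the difference between A34a and SCR mice was -0.23, described only. In 85% O2 at P5 it was -0.17, with no overlap between the groups and an adjusted p of 0.218.

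The 3 Rbm3 probes did not move alike. The brightest and the next, both placed on chromosome 13, correlated at 0.96 (Pearson r over 32 mice), and in 85% O2 with SCR the next gave 0.28 at P5 (adjusted p = 0.00341) and 0.62 at P14 (adjusted p = 2.34e-05). The third, on chromosome X, correlated with them at 0.11 and 0.07. On the chromosome X probe the 85% O2 mice with SCR at P14 read -3.46, -3.74, -3.21 and -3.59 and the 21% O2 mice -2.87, -3.19, -2.96 and -2.86, a fall of 0.53 (SE 0.19, adjusted p = 0.0291) where the brightest probe rose. On the same probe the A34a mice in 85% O2 at P14 read -2.34, -3.23, -2.60 and -2.15, overlapping the SCR mice, and the level rose by 0.92 against SCR (SE 0.19, adjusted p = 0.0251). The statements on Rbm3 at P14 and with age therefore hold in direction for both chromosome 13 probes. The oxygen results at P5 hold for the brightest alone. With A34a at P5 the next probe gave 0.12 (adjusted p = 0.149), where the brightest gave -0.08. With the mean of all 3 probes the rise in 85% O2 with SCR at P14 was 0.19 (adjusted p = 0.0351) in place of 0.50, and the difference between the oxygen effects at P14 and P5 was 0.10 and its adjusted p was 0.549.

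**Figure D1:**
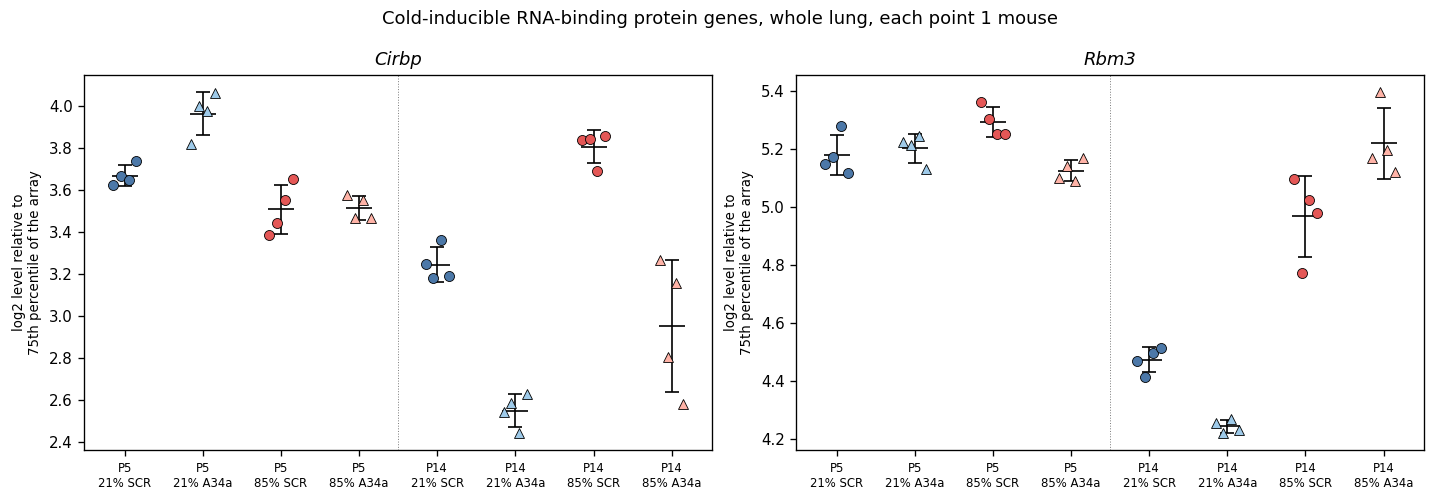
Levels of Cirbp and Rbm3 (log2, centred on each array's 75th percentile, vertical axis) in each of 32 mice by group (horizontal axis), with bars for the mean and SD of 4 mice; circles are SCR, triangles A34a. At P14 in 85% O2 the A34a mice have Cirbp between 2.58 and 3.27, all below the SCR mice, and Rbm3 at P14 is lowest in 21% O2, with A34a mice between 4.22 and 4.27.

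Hspa5, which encodes the ER chaperone BiP, was lower in 85% O2 at P5 and not distinguishable between oxygen levels at P14. At P5 with SCR the 21% O2 mice read 5.64, 5.49, 5.64 and 5.57 and the 85% O2 mice 5.24, 5.13, 5.22 and 5.10. With A34a the 21% O2 mice read 5.70, 5.73, 5.75 and 5.65 and the 85% O2 mice 5.18, 5.35, 5.49 and 5.41. The oxygen groups did not overlap with either oligonucleotide. Hspa5 fell by 0.41 with SCR (SE 0.07, 1.33-fold, adjusted p = 0.000266) and by 0.35 with A34a (SE 0.07, 1.27-fold, adjusted p = 0.000807). At P14 the oxygen difference was 0.07 with SCR (95% interval -0.12 to 0.27) and -0.06 with A34a (95% interval -0.25 to 0.14). The oxygen effect at P14 exceeded that at P5 by 0.48 (SE 0.11, adjusted p = 0.00112). From P5 to P14 Hspa5 rose by 0.58 in 85% O2 (SE 0.08, adjusted p = 1.71e-06), and the change in 21% O2 was 0.10 (adjusted p = 0.314). With antimiR-34a the tested differences were 0.12 and 0.18 at P5 and 0.04 at P14 in 85% O2, with adjusted p between 0.291 and 0.854.

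Sdf2l1, which encodes a partner of ER chaperone complexes that retains unfolded protein, was chosen on the P14 mice of 21% O2. There the SCR mice read -0.06, 0.01, 0.11 and -0.17 and the A34a mice 0.35, 0.28, 0.52 and 0.33, a difference of 0.40 given without a test. In the P14 mice kept in 85% O2 the SCR mice read 0.08, 0.17, 0.12 and 0.27 and the A34a mice -0.10, 0.10, -0.01 and 0.07. These groups overlapped, and the difference was -0.14 (SE 0.08, adjusted p = 0.396). At P5 the antimiR-34a differences were 0.01 in 21% O2 (adjusted p = 0.953) and 0.26 in 85% O2 (SE 0.09, adjusted p = 0.286). With age in 85% O2 with SCR, Sdf2l1 rose by 0.82 (SE 0.09, 1.77-fold, adjusted p = 3.4e-08), from between -0.84 and -0.46 to between 0.08 and 0.27. Oxygen at P5 gave -0.04 with SCR (adjusted p = 0.723) and 0.20 with A34a (adjusted p = 0.0921), and the latter was 0.25 without 85% O2 A34a replicate 3 (adjusted p = 0.0461).

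Other ER chaperone and ER stress genes, a list of 25 that leaves out both members, moved both ways with oxygen. In 85% against 21% O2 with SCR at P5, 6 of the 25 rose and 7 fell, with a median change of 0.03, against 17.5% of all probes higher, 26.4% lower and a median of -0.07. At P14 with SCR, 9 rose and 7 fell, with a median of 0.07, against 28.4% higher, 32.4% lower and a median of -0.06 over all probes. At P5 the largest called changes were in Derl3, which helps take misfolded protein out of the ER and fell by 0.97 (adjusted p = 7.18e-05), Herpud1, a stress-induced part of the same machinery, which rose by 0.66 (adjusted p = 4.84e-07), and Atf6, an ER stress sensor, which rose by 0.58 (adjusted p = 3.14e-05). At P14 they were in Hspa13 (-0.85, adjusted p = 0.00328), an HSP70 relative of the microsomes, Dnajb9 (-0.70, adjusted p = 1.52e-05), a co-chaperone of BiP, and Derl3 again (-0.61, adjusted p = 0.00038). With A34a 5 rose and 5 fell at P5, and 9 rose and 6 fell at P14, where 46.6% and 65.5% of all probes were called. With age and SCR, 11 rose and 1 fell in 21% O2 (27.8% of all probes higher and 23.5% lower), and 13 rose and 1 fell in 85% O2 (26% higher and 16.2% lower), with a median of 0.16 in each. AntimiR-34a in 85% O2 called 0 of the 25 at P14, against 2.66% of all probes, and 1 at P5, Herpud1, which fell by 0.32 (adjusted p = 0.045), against 0.0639% of all probes.

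**Figure D2:**
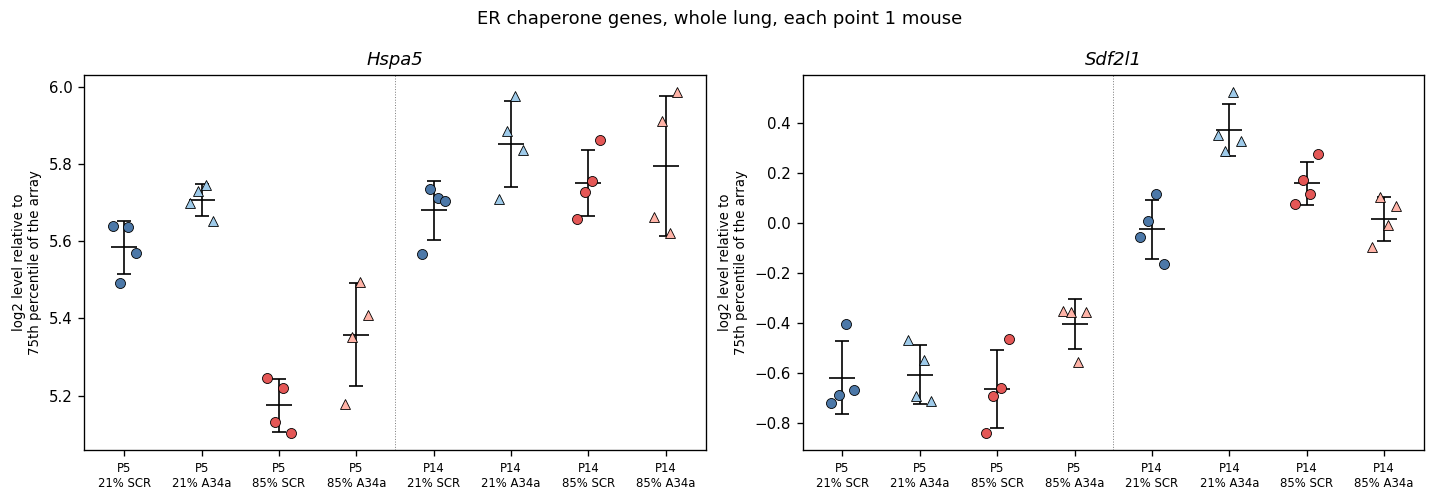
Levels of Hspa5 and Sdf2l1 (log2, centred on each array's 75th percentile, vertical axis) in each of 32 mice by group (horizontal axis), with bars for the mean and SD of 4 mice; circles are SCR, triangles A34a. The P5 mice kept in 85% O2 have Hspa5 at 5.49 or below, and Sdf2l1 is above its P5 levels in each P14 group.

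Hspa1a, the classical heat-inducible HSP70 gene, here read together with Hspa1b, was higher in 85% O2 at P5 and higher at P14 than at P5. At P5 with SCR the 21% O2 mice read -2.52, -2.83, -2.83 and -2.03 and the 85% O2 mice -2.05, -1.99, -2.20 and -1.64. With A34a the 21% O2 mice read -2.84, -2.91, -2.80 and -2.76 and the 85% O2 mice -2.00, -2.02, -2.49 and -2.06. The SCR groups overlapped through a single 21% O2 mouse, replicate 4, and the A34a groups did not overlap. Hspa1a rose by 0.58 with SCR (SE 0.17, 1.50-fold, adjusted p = 0.013) and by 0.68 with A34a (SE 0.17, 1.60-fold, adjusted p = 0.00459). The array of that replicate 4 also carried the 8 skeletal muscle markers at a summed log2 level of 6.19, where the other 3 mice of the group had 1.20 to 1.91, and without it the SCR change was 0.76 (adjusted p = 0.00102). By the methods' t-test the SCR change had an adjusted p of 0.108.

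At P14 the oxygen differences of Hspa1a were 0.19 with SCR (adjusted p = 0.485) and 0.32 with A34a (adjusted p = 0.225). The A34a difference rested on 1 mouse. The A34a mice in 85% O2 at P14 read -1.34, -1.31, -1.30 and -0.13, and the array of the high mouse, replicate 4, had a summed adipocyte marker level of 2.29 where the other 3 had -1.01 to -0.29. Without that mouse the A34a difference was 0.03 (adjusted p = 0.874). From P5 to P14 Hspa1a rose by 1.13 in 21% O2 (SE 0.21, 2.18-fold, adjusted p = 6.83e-05) and by 0.73 in 85% O2 (SE 0.21, 1.66-fold, adjusted p = 0.00549). Over the 8 groups the 4 means at P14, from -1.43 to -1.02, all lay above the 4 at P5, from -2.83 to -1.97.

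Dnajb1, an HSP40 co-chaperone that hands clients to HSP70, fell in 85% O2 at P14, where Hsp90aa1 and Hsph1 rose. With SCR at P14 the 21% O2 mice read 4.17, 4.15, 4.30 and 3.94 and the 85% O2 mice 3.98, 3.72, 3.57 and 3.74. The groups overlapped by a single mouse on each side. Dnajb1 fell by 0.39 (SE 0.10, 1.31-fold, adjusted p = 0.00556), and with A34a, where the 85% O2 mice read 3.88, 3.96, 3.84 and 4.17, the difference was -0.22 (adjusted p = 0.0823), or -0.29 without replicate 4, the highest of them, which passed (adjusted p = 0.0287). At P5 the oxygen differences were 0.01 with SCR (adjusted p = 0.928) and -0.07 with A34a (adjusted p = 0.565). Its oxygen effect at P14 lay 0.40 below that at P5 (log2 difference -0.40, SE 0.14, adjusted p = 0.0232). That call was lost without P14 21% O2 SCR replicate 3 (-0.35, adjusted p = 0.055), without P14 85% O2 SCR replicate 3 (-0.34, adjusted p = 0.0592) and with array brightness as a covariate (-0.30, adjusted p = 0.0504). The fall of 0.27 from P5 to P14 in 85% O2 with SCR (adjusted p = 0.0304) was lost without any 1 of P5 replicates 3 and 4 and P14 replicates 2, 3 and 4, at -0.26 to -0.21. It was also lost with only the compared groups (adjusted p = 0.0778), by the methods' t-test (adjusted p = 0.106) and with array brightness as a covariate (-0.16, adjusted p = 0.176), and it reached -0.53 with normexp (adjusted p = 0.000159). With A34a in 85% O2, where the ages were not tested against each other, the mean was 3.81 at P5 and 3.96 at P14. The means of Dnajb1 over the 8 groups spanned only 0.43, against a median SD of 0.15.

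Hsp90aa1, the inducible cytosolic HSP90 gene, was higher in 85% O2 at both ages and with either oligonucleotide. With SCR at P14 the 21% O2 mice read 3.91, 4.07, 4.08 and 4.16 and the 85% O2 mice 4.79, 4.77, 4.84 and 4.90. With A34a at P14 the 21% O2 mice read 4.17, 4.14, 4.2 and 4.19 and the 85% O2 mice 4.60, 5.0, 4.54 and 4.99. Neither pair overlapped at P14. Hsp90aa1 rose by 0.77 with SCR (SE 0.10, 1.70-fold, adjusted p = 1.99e-05) and by 0.60 with A34a (SE 0.10, 1.52-fold, adjusted p = 0.000127).

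At P5 the rise of Hsp90aa1 was smaller. With SCR the mice went from 4.41, 4.29, 4.11 and 4.24 in 21% O2 to 4.63, 4.67, 4.60 and 4.31 in 85% O2, and these groups overlapped. With A34a they went from 4.2, 4.12, 4.33 and 4.17 to 4.33, 4.58, 4.49 and 4.48. The rises were 0.29 (SE 0.09, adjusted p = 0.0189) and 0.27 (SE 0.09, adjusted p = 0.0252), and the oxygen effect at P14 exceeded that at P5 by 0.48 with SCR (SE 0.13, adjusted p = 0.00537). The P5 call with SCR was lost without 21% O2 replicate 3 or 85% O2 replicate 2, with only the compared groups (adjusted p = 0.0532) and by the methods' t-test (adjusted p = 0.0886), and the P5 call with A34a without replicate 2 or 4 of either group. The change with age in 85% O2 with SCR was 0.28 (adjusted p = 0.0204), and it was lost under 6 of 11 alternatives, with values from 0.08 with the authors' values (adjusted p = 0.485) to 0.28 with only the compared groups (adjusted p = 0.0535). It was 0.19 without P5 replicate 4 (adjusted p = 0.109) and 0.25 without P14 replicate 4 (adjusted p = 0.0581). In 21% O2 with SCR it was -0.21 (adjusted p = 0.0678), and -0.26 without P5 replicate 3 (adjusted p = 0.0369).

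Hsph1, which encodes HSP110, the nucleotide exchange factor of HSP70, was higher in 85% O2 at P14. With SCR the 21% O2 mice read 1.90, 1.67, 1.89 and 1.71 and the 85% O2 mice 2.42, 2.39, 2.42 and 2.42. With A34a the 21% O2 mice read 2.05, 1.97, 2.30 and 2.24 and the 85% O2 mice 2.20, 2.78, 2.16 and 2.66. The SCR groups lay apart and the A34a groups overlapped. Hsph1 rose by 0.62 with SCR (SE 0.13, 1.54-fold, adjusted p = 0.00102), and the A34a difference of 0.31 (SE 0.13) missed the threshold at an adjusted p of 0.0501 and passed without 21% O2 A34a replicate 3 (0.36, adjusted p = 0.039) or 85% O2 A34a replicate 1 (0.39, adjusted p = 0.0204) or 3 (0.41, adjusted p = 0.0141). The gene's other probe, which correlated with this one at 0.93 (Pearson r over 32 mice), gave 0.78 with SCR (adjusted p = 0.000599) and 0.45 with A34a (adjusted p = 0.0186).

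At P5 the oxygen differences of Hsph1 were 0.01 with SCR (95% interval -0.18 to 0.20) and 0.18 with A34a (adjusted p = 0.10). Its oxygen effect at P14 exceeded that at P5 by 0.61 (SE 0.16, adjusted p = 0.0032). From P5 to P14 it rose by 0.69 in 85% O2 (SE 0.11, 1.61-fold, adjusted p = 2.03e-05), and in 21% O2 the change was 0.08 (adjusted p = 0.582). In the P14 mice of 21% O2 the A34a group lay above the SCR group by 0.35 without overlap, described only.

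Hspb1, which encodes the small heat shock protein HSP27, passed with age and, by limma, not with oxygen at either age. Between P5 and P14 the SCR mice in 85% O2 went from 4.19, 4.52, 4.09 and 4.33 to 5.57, 5.47, 5.41 and 5.39. In 21% O2 they went from 4.46, 4.45, 4.38 and 5.23 to 5.18, 5.04, 5.18 and 4.98. The P5 mouse at 5.23 is the replicate 4 whose array carried skeletal muscle markers, a tissue in which HSP27 is abundant. Hspb1 rose with age by 1.18 in 85% O2 (SE 0.17, 2.26-fold, adjusted p = 3.05e-06) and by 0.47 in 21% O2 (SE 0.17, 1.38-fold, adjusted p = 0.0208). Without that replicate 4 the rise in 21% O2 was 0.67 (adjusted p = 0.000706), and without any 1 of the other 3 P5 mice of the group, or without P14 replicate 1, it no longer passed, nor with only the compared groups (adjusted p = 0.0712) or by the methods' t-test (adjusted p = 0.162). Its probe is placed on chromosome 13 in mm9, while RefSeq places the gene on chromosome 5.

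With SCR the oxygen differences of Hspb1 were -0.35 at P5 (adjusted p = 0.0933), or -0.15 without the same replicate 4 (adjusted p = 0.28), and 0.37 at P14 (adjusted p = 0.0652). The difference between them was 0.71 (SE 0.23, adjusted p = 0.0169), and it ranged from 0.51 to 0.80 as each array was left out. The A34a mice at P14 in 85% O2 read 5.06, 6.12, 5.28 and 5.43, wider apart than any other group, and with A34a the oxygen differences were 0.25 at P5 (adjusted p = 0.223) and 0.32 at P14 (adjusted p = 0.0937), the latter 0.46 without 85% O2 A34a replicate 1 (adjusted p = 0.0175). The second Hsp90aa1 probe was above background on 1 of 32 arrays and was not tested.

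**Figure D3:**
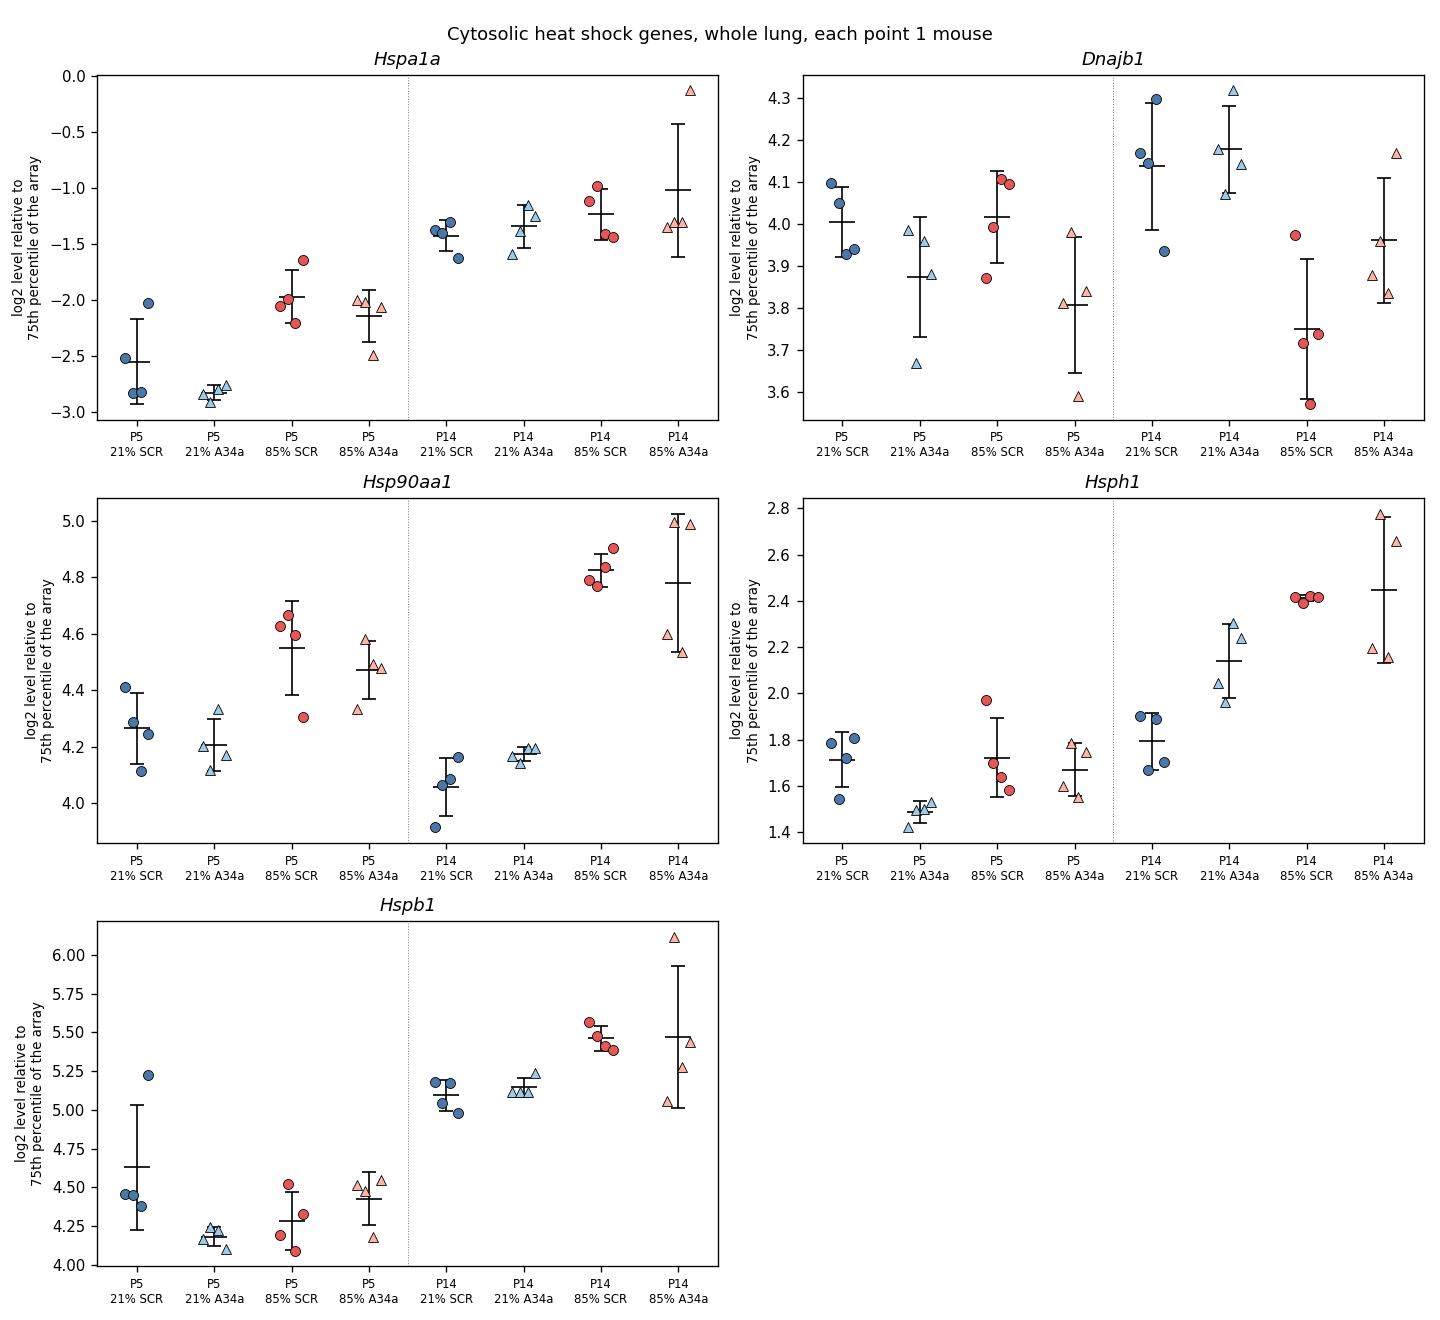
Levels of the 5 measured cytosolic heat shock genes (log2, centred on each array's 75th percentile, vertical axes) in each of 32 mice by group (horizontal axes), with bars for the mean and SD of 4 mice; circles are SCR, triangles A34a. Hspa1a and Hspb1 have higher group means at P14 than at P5, Hsp90aa1 is highest in the P14 groups kept in 85% O2 (means 4.82 and 4.78), and Dnajb1 is lowest in the P14 SCR group kept in 85% O2 (3.75).

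Among 24 other cytosolic and mitochondrial heat shock genes, a list that leaves out the members, those called were mostly higher in 85% O2. At P5, 6 rose and 1 fell with SCR, with a median change of 0.08, against 17.5% of all probes higher and 26.4% lower. With A34a at P5, 9 rose and 1 fell, with a median of 0.12, against 17.2% higher and 29.5% lower. At P14 with SCR, 14 rose and 0 fell, with a median of 0.21, where 28.4% of all probes were higher and 32.4% lower. At P14 with A34a, 11 rose and 1 fell, with a median of 0.14, against 27.8% higher and 37.8% lower. At P14 with SCR the largest were Hspa9, the mitochondrial HSP70 (1.54, adjusted p = 1.23e-07), Hspb8, a small heat shock protein (1.45, adjusted p = 4.68e-07), and Dnajb4, an HSP40 (0.93, adjusted p = 2.88e-07). At P5 with SCR they were Hspb8 (0.98, adjusted p = 0.000339), Hspa9 (0.86, adjusted p = 4.41e-06) and Dnajb2, another HSP40 (0.47, adjusted p = 5.16e-05).

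A list held the heat shock factor genes Hsf1, Hsf2 and Hsf4, and Hsbp1, which is not itself a heat shock factor gene. It had 0 of 4 called at P14 with SCR and 0 of 4 with A34a, where 60.8% and 65.5% of all probes were called. The SCR difference of Hsf1 at P14 was 0.13 (adjusted p = 0.191). At P5 1 of 4 was called with SCR, Hsf2, which fell by 0.34 (adjusted p = 0.0271), and with A34a Hsbp1 (0.31, adjusted p = 0.0156) and Hsf4 (0.82, adjusted p = 0.00434) rose and Hsf2 fell (-0.29, adjusted p = 0.0495), where 43.9% and 46.6% of all probes were called. Of 15 genes listed with Cirbp and Rbm3, glycine-rich RNA-binding or splicing factor genes apart from Rtn3, which shapes ER tubules, 8 rose and 4 fell at P14 with SCR, with a median of 0.23, where 28.4% of all probes were higher and 32.4% lower. At P5 1 rose and 6 fell with SCR, with a median of -0.11, where 17.5% of all probes were higher and 26.4% lower. With A34a the counts were 8 and 4 at P14, against 27.8% of all probes higher and 37.8% lower. At P5 with A34a they were 1 and 7, against 17.2% higher and 29.5% lower. From P5 to P14 with SCR, 1 rose and 11 fell in 21% O2 and 1 rose and 5 fell in 85% O2, and of the 24 heat shock genes 8 rose and 7 fell in 21% O2 and 11 rose and 0 fell in 85% O2, against 27.8% of all probes higher and 23.5% lower in 21% O2 and 26% and 16.2% in 85% O2. With antimiR-34a at P14 in 85% O2, where Cirbp fell, 1 of these 15 rose, Tra2a (0.34, adjusted p = 0.0198), and 0 fell, and 1 of the 24 heat shock genes was called, against 2.66% of all probes, Chordc1, an HSP90 co-chaperone, which rose by 0.34 (adjusted p = 0.0335).

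**Figure D4:**
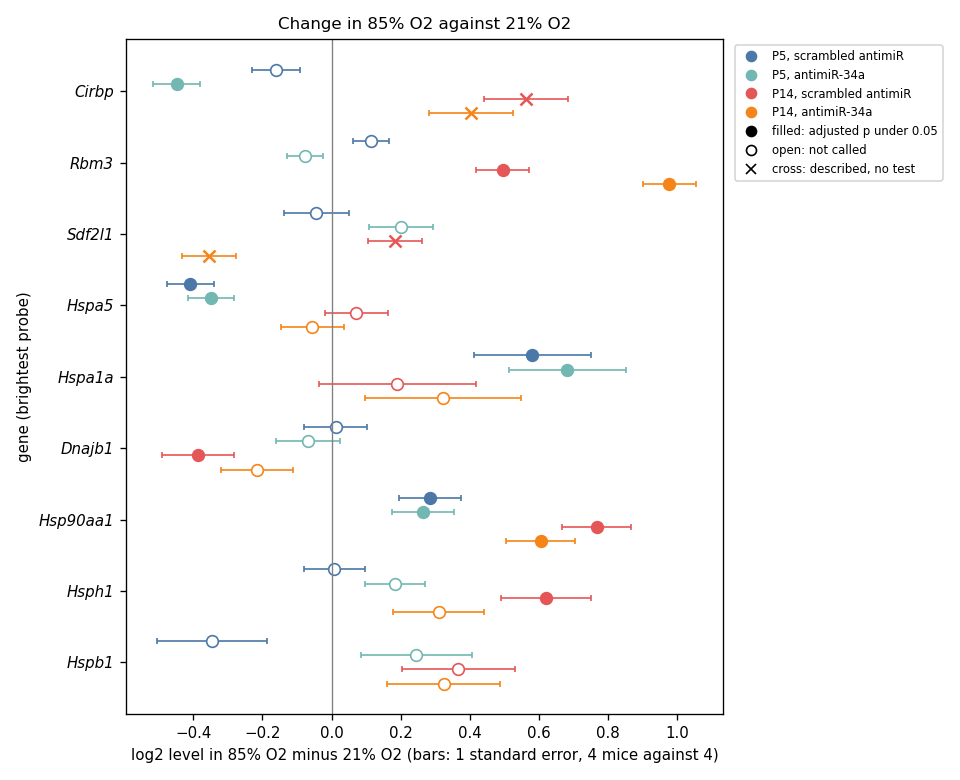
Change of each measured gene in 85% against 21% O2 (log2 difference, horizontal axis; genes on the vertical axis) at each age and with each oligonucleotide, with bars of 1 standard error from 4 mice against 4. Filled points passed an adjusted p of 0.05, open points did not, and crosses were described without a test; Hspa5 is below 0 and Hspa1a above 0 with both filled at P5, while Rbm3 and Hsp90aa1 are filled above 0 at P14.

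**Figure D5:**
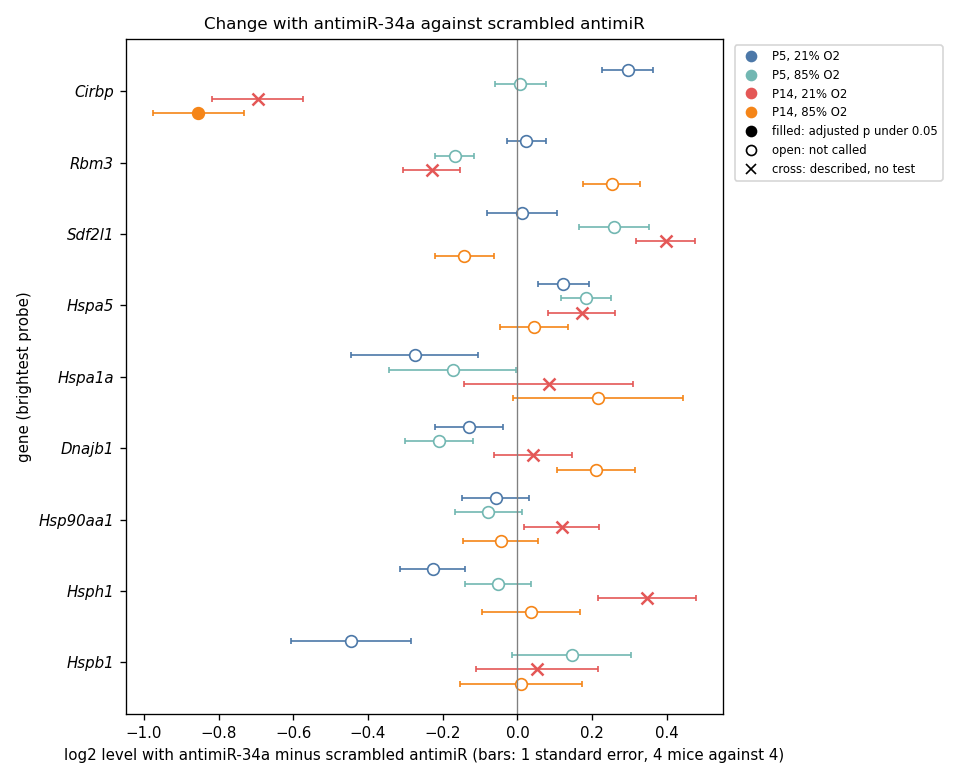
Change of each measured gene with antimiR-34a against SCR (log2 difference, horizontal axis; genes on the vertical axis) at each age and oxygen level, with bars of 1 standard error from 4 mice against 4. The only filled point is Cirbp in 85% O2 at P14 (-0.85), and the crosses are the P14 mice in 21% O2, which were described without a test.

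Markers of other tissues moved with oxygen in the same mice. At P5 with SCR, where Hspa5 fell and Hspa1a and Hsp90aa1 rose, 7 of 8 heart muscle markers fell in 85% O2, with a median of -1.70, and 3 of 8 red blood cell markers fell, with a median of -0.76, against 26.4% of all probes lower. The summed log2 level of the skeletal muscle markers was 1.20 to 6.19 in those 21% O2 mice and 0.50 to 0.84 in the 85% O2 mice. Lung markers there were called higher for 3 of 8 and lower for 1, where 17.5% of all probes were higher. With A34a at P5, 4 of 8 red blood cell and 2 of 8 heart muscle markers fell in 85% O2, against 29.5% of all probes lower. Their medians were -0.90 and -1.02. Lung markers with A34a at P5 were called higher for 2 of 8 and lower for 0, against 17.2% higher.

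At P14 with SCR, 5 of 8 heart muscle markers fell in 85% O2, with a median of -1.51, against 32.4% of all probes lower. Lung markers were called higher for 4 of 8 and lower for 0, against 28.4% higher. Red blood cell markers were partly at background in 85% O2, with 5 to 7 of the 8 above it against 7 or 8 in 21% O2. They are therefore given by their summed level, which was 6.93 to 8.21 in the 85% O2 mice and 7.90 to 9.01 in the 21% O2 mice. Adipocyte markers were mostly at background in the 85% O2 mice, with 2 or 3 of the 8 above it in each mouse against 7 or 8 in each 21% O2 mouse, so they are given by their summed level alone. It was -0.96 to -0.58 in the 85% O2 mice and 2.66 to 5.49 in the 21% O2 mice. The summed thymus level was 0.98 to 1.82 in the 85% O2 mice, with 5 of 8 markers above background, and 1.87 to 2.05 in the 21% O2 mice, with 8 of 8. In the P5 mice of 21% O2 with SCR the summed adipocyte level was 0.09 to 2.28 and the summed thymus level 0.95 to 1.22, both below the P14 mice of the same oxygen level. From P5 to P14 in 85% O2 with SCR, 9 of 9 members were called. In that step 6 of 8 lung markers and 6 of 12 immediate early genes rose, with medians of 0.58 and 0.60, against 26% of all probes higher. The summed red blood cell level was 7.64 to 8.49 in those P5 mice and 6.93 to 8.21 in those P14 mice. In 21% O2 with SCR over the same ages, 9 of 12 immediate early genes and 6 of 8 lung markers rose, with medians of 0.75 and 0.41, and 3 of 8 red blood cell markers fell, with a median of -0.80, against 27.8% of all probes higher and 23.5% lower. With A34a at P14, 4 of 8 heart muscle markers fell in 85% O2, with a median of -1.45, against 37.8% of all probes lower. Lung markers with A34a at P14 were called higher for 1 of 8 and lower for 0, against 27.8% higher. The part of these tissues in the changes of the members with oxygen and age was not tested, and oxygen level and slide cannot be told apart. In antimiR-34a against SCR at P14 in 85% O2, where Cirbp fell, 0 of 8 heart muscle markers were called, against 2.66% of all probes. Adipocyte and thymus markers are not counted in that comparison, since part of them were at background in both groups. There 2 of 8 neutrophil markers fell, Camp (-1.69, adjusted p = 0.0142) and Ngp (-2.21, adjusted p = 0.0161). The median over the 8 was -0.80, and 1.54% of all probes were lower. The summed neutrophil level was 3.88 to 5.60 in those A34a mice and 4.83 to 5.81 in the SCR mice.

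Genes that respond quickly to handling and genes of the daily clock were also read. Of 12 immediate early genes, 8 rose at P5 and 7 at P14 in 85% O2 with SCR and 0 fell, where 17.5% and 28.4% of all probes were higher. With A34a, 3 rose and 2 fell at P5, against 17.2% of all probes higher and 29.5% lower, and 11 rose and 0 fell at P14, with a median of 1.19, against 27.8% higher. With antimiR-34a at P14 in 85% O2, 2 of the 12 were called, Egr1 and Zfp36, which rose by 1.26 (adjusted p = 0.042) and 0.81 (adjusted p = 0.0394), where 1.12% of all probes were higher. Of 13 clock genes, 5 rose and 4 fell at P14 with SCR, near the 60.8% called of all probes. At P5 with SCR 7 rose and 1 fell, against 17.5% of all probes higher and 26.4% lower. With A34a, 6 rose and 3 fell at P5 and 8 rose and 5 fell at P14, where 46.6% and 65.5% of all probes were called. Among those that rose at P14 with SCR were Nr1d1, the clock repressor REV-ERB alpha (2.03, adjusted p = 1.01e-07), and Per1, a core clock gene (1.77, adjusted p = 2.59e-05). With antimiR-34a at P14 in 85% O2 Nr1d1 fell by 0.68 (adjusted p = 0.0272) and Per1 by 1.00 (adjusted p = 0.0406), and these were the 2 of the 13 called, where 1.54% of all probes were lower. Their part in the change of Cirbp was not tested.

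Across the 32 mice the genes whose levels followed the members most closely are a description only, since the mice share groups, slides and row positions. For Cirbp they were Nanos3, Cldn20 and Syncrip, with Pearson r of 0.87, 0.86 and 0.86. For Hspa5 they were Creld2, itself an ER stress gene, Col1a1, a collagen gene, and Erp27, an ER protein, with 0.89, 0.87 and 0.87. For Hspa1a they were Tlr4, Crym and C1s1, with 0.95, 0.93 and 0.93. For Hsph1 they were Pdyn, Ppp2r5b and Rexo2, with 0.91, 0.89 and 0.89.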

How the data were processed

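The 32 mice gave 1 one-colour Agilent array each, hybridised with RNA of the whole lung. Per the file headers, the deposited files hold spot intensity values from Feature Extraction 10.7.3.1, with probe positions in mm9. The authors' series table holds log2 values, which correlated with the scanner values at 0.997 to 1.00 per array, and its normalization is not given in the sources used here.

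The log2 processed signal minus the array's 75th percentile was taken, control and outlier spots (0.211% of spots) were left out and repeated spots averaged. Tested probes had to be well above background in every mouse of some group of the fit. The test was limma 3.58.1 (R 4.3.3), with Benjamini-Hochberg adjustment over all probes and a threshold of 0.05. The groups of an age shared 1 estimate of spread, and comparisons between ages used all 32 arrays. The scripts were tested on simulated data. The labels do not say whether mice shared a litter, so p-values measure the spread between these mice. Their number limits the precision. The text reads the 9 members that had a probe on their brightest tested probe. It also names the 3 largest called changes of the cytosolic and ER lists and the 3 genes most like 4 members. Some further genes of these and the other lists are named as well. The members, lists and tests were chosen with earlier results of these data known. Alternatives tried were normexp background correction (offset 50), quantile normalization, the authors' values, other filters, only the compared groups, the methods' t-test, a replicate block, array weights, array brightness, mean probes and leaving out each array.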

Additional observations from a re-analysis of the deposited data

Results flagged for a closer look

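In 7 of 72 groups of 4 mice, a single mouse lay far from the other 3, with a gap that took up more of the group's range than the 95% limit of Dixon's test allows. Chance gives such a gap in about 1 in 20 groups, and 9.72% were found here. Hspb1 in P5 21% O2 SCR replicate 4 was at 5.23, above 4.38 to 4.46. Hspb1 in P14 21% O2 A34a replicate 4 was at 5.24, above 5.11 to 5.12. Hspa1a in P14 85% O2 A34a replicate 4 was at -0.13, above -1.34 to -1.30. Hspa1a in P5 85% O2 A34a replicate 3 was at -2.49, below -2.06 to -2.00. Sdf2l1 in P5 21% O2 SCR replicate 3 was at -0.40, above -0.72 to -0.67. Sdf2l1 in P5 85% O2 A34a replicate 3 was at -0.55, below -0.36 to -0.35. Cirbp in P14 85% O2 SCR replicate 3 was at 3.69, below 3.83 to 3.86.

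The effect of 85% O2 with SCR differed between P14 and P5 by limma's test of the difference itself for 6 members. The P14 effect minus the P5 effect was 0.71 for Hspb1, 0.61 for Hsph1, 0.48 for Hsp90aa1, 0.48 for Hspa5, 0.38 for Rbm3 and -0.40 for Dnajb1 on the log2 scale. The call of Dnajb1 was lost without P14 21% O2 SCR replicate 3 (-0.35, adjusted p = 0.055) or P14 85% O2 SCR replicate 3 (-0.34, adjusted p = 0.0592). Each age and oxygen level lies on a slide of its own, so this difference and the slides cannot be told apart.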

How the results depend on the processing

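No called change of a member turned direction under any alternative run for it (10 or 11 for each) or with any array left out. Counts of members called moved by over 1.5 times as follows. For antimiR-34a at P14 in 85% O2 the count went from 1 to 2 (Cirbp and Rbm3) with quantile normalization, the authors' values or mean probes, and to 0 with only the compared groups or the methods' t-test. For antimiR-34a at P5 in 21% O2 it went from 0 to 1 (Cirbp) with array weights. For 85% O2 with SCR at P5 it went from 3 to 1 (Hspa5) with the methods' t-test. For 85% O2 with A34a at P14 it ranged from 2 to 4 as each array was left out, and without A34a 85% O2 replicate 1 Hsph1 and Hspb1 were also called. The cause was not tested.

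With the replicate number as a block, Cirbp at P14 in 85% O2 changed by -0.85 (adjusted p = 0.0134), and no count of members called moved. Same-numbered mice did not deviate together (correlations from -0.20 to 0.15), so the numbers do not pair mice. Single calls lost by an alternative numbered 20, most of them in the change with age in 85% O2. Quantile normalization moved the median of all probes in 85% O2 with A34a at P14 from -0.11 to 0.08, and there Rbm3 stayed between 0.72 and 0.98 and Hsp90aa1 between 0.39 and 0.61 over the alternatives. Under quantile normalization the share of called probes that were higher went from 39.9% to 52.8% in 85% O2 with SCR at P5, from 36.8% to 49.1% with A34a at P5, from 42.4% to 56% with A34a at P14, and from 61.6% to 47.9% with age in 85% O2. Under normexp it went from 46.7% to 62.8% in 85% O2 with SCR at P14 and to 73.0% with age in 85% O2. Single changes that quantile normalization moved by over 1.5 times while keeping their call were, for Rbm3, 0.50 to 0.28 in 85% O2 with SCR at P14, -0.33 to -0.54 with age in 85% O2 and 0.38 to 0.20 for the P14 minus P5 oxygen effect. For Hsp90aa1 they were 0.60 to 0.39 in 85% O2 with A34a at P14 and 0.48 to 0.31 for the P14 minus P5 oxygen effect, and with age in 85% O2 Hspa5 went from 0.58 to 0.37 and Dnajb1 from -0.27 to -0.41. The background count of all probes called for antimiR-34a moved widely over the alternatives, from 49 to as few as 1 and to 250 or more (only the compared groups; more with normexp) at P5 in 21% O2, from 23 to between 0 and 4283 at P5 in 85% O2 and from 1024 to between 0 and 1181 at P14 in 85% O2. Slide as a block could not be fitted, since no slide holds 2 oxygen levels. The adipocyte and thymus markers near background limit what their levels can show.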
